A study of Mus musculus with 11 samples.

Results

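The subject is 10 mouse genes of iron storage, iron export and the hepcidin system: Hamp, Slc40a1, Fth1, Trf, Tfr2, Hfe, Slc11a1, Slc11a2, Blvrb and Cp. They were taken by gene symbol from the platform annotation, which gave 23 probes for these 10 genes, out of 19057 genes named by the 45281 probes of the array. Expression was measured on Illumina mouse bead arrays, 1 array per tissue sample, in liver and spleen of Her2/neu transgenic mice. All groups share the transgene, which drives mammary tumours, and the sources used here do not name the promoter behind it. The liver groups were controls on plain water (replicates 1 and 25), mice given Curaxin-137 at 0.1 mg/ml in the water (replicates 43 and 55) and mice given 0.2 mg/ml (replicates 73 and 85). The spleen groups were 1 control (replicate 8), 0.1 mg/ml (replicates 56 and 32) and 0.2 mg/ml (replicates 62 and 62_86). Mice were treated from the age of 4 weeks to that of 14, which is 10 weeks. Curaxins such as Curaxin-137 are DNA-binding small molecules that disturb the histone chaperone FACT.

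Hepcidin, the peptide made from Hamp, is the hormone that limits iron entry into plasma. It is secreted mainly by hepatocytes, binds the iron exporter ferroportin (Slc40a1) on macrophages, hepatocytes and gut cells, and causes its degradation. Hfe and Tfr2 help hepatocytes sense transferrin-bound iron and raise hepcidin, together with signals from bone morphogenetic proteins (BMP) and from inflammatory cytokines through STAT3. Splenic macrophages recover iron from old red cells and return it through ferroportin, and the liver stores iron in ferritin and supplies plasma with transferrin and ceruloplasmin.

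The mean signal per array lay between 94.7 and 219, and 35.8% to 43.2% of the probes were detected (detection p under 0.05). Values are log2 intensities after background correction with an offset of 16 and quantile normalization, and a unit of 1 is a doubling. Liver arrays held 8 of 10 hepatocyte markers above the filter. The summed intensities of all 10 were 57521 to 61484, against 236 to 266 on spleen arrays. The 5 B cell markers named by a probe passed the filter in spleen, and none of them did in liver. The liver control replicate 25 stood apart in its inflammatory genes, with an acute phase sum of 65500 against 27507 to 33223 on the other liver arrays and a neutrophil sum of 1643 against 153 to 210. The spleen replicate 32 at 0.1 mg/ml stood apart with an erythroid sum of 33828 against 17767 to 20880 on the other spleen arrays and a neutrophil sum of 14701 against 1640 to 3852. Replicate 56 had the highest mean signal, 219. It correlated with the other spleen arrays at 0.945 to 0.959, and replicate 32 at 0.945 to 0.958. Among the control, 62 and 62_86 the correlations were 0.970 to 0.987. The spleen labels 62 and 62_86 share a number and may share a mouse, and nothing in the labels says that replicates came from separate animals beyond the stated 2 mice per group. The p-values therefore measure the spread between these arrays, and in whole tissue fewer cells of a type and less RNA per cell cannot be told apart.

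The Hamp promoter is shown because it carries the motifs through which the BMP and STAT3 signals are known to act on hepcidin. Promoter windows from RefSeq (GRCm38.p6) were matched by symbol for 7 of the 10 genes. In the 250 bases before the Hamp start site, at chr7:30944030-30944279 on the minus strand, the capitals mark the BMP response element GGCGCC, 109 to 104 bases before the start, and a STAT motif TTCNNNGAA, 97 to 89 bases before it.
Hamp promoter: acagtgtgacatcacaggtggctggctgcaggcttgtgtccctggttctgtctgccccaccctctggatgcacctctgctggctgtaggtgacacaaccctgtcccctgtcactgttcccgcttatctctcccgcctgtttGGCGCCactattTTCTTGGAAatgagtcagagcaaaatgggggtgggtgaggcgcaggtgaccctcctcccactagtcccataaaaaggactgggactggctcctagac
Both motifs read the same on either strand, and the matches do not overlap. Of 32851 windows of 250 bases, 9.59% held GGCGCC and 7.02% held TTCNNNGAA. Among the windows of the other 6 genes, neither motif was present. A search for the core of the antioxidant response element, TGACNNNGC on both strands, which 10.2% of windows held, matched once in the Hfe window and in no window of the other 6 genes.

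Between liver and spleen, Hamp, Trf, Tfr2 and Cp had the largest differences of the 10 genes on their main probes. Across both tissues together, 7 of the 10 genes differed (limma with Benjamini-Hochberg adjustment at 0.05), 6 of them higher in liver and 1 lower. Over all 16179 features, 62.3% were called, 25.6% higher and 36.7% lower, so a call between the tissues was common. The median of the 10 liver minus spleen differences was 1.37 on the log2 scale, against -0.07 over all features. With 75th percentile scaling, quantile normalization being left out, the median of all features was 0.21 and 52.5% of all calls were higher, against 41.1%.

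Hamp had the largest difference of the 10 genes. It averaged 13.08 ± 0.06 in liver (SD, n = 6) and 4.53 ± 0.11 in spleen (SD, n = 5), a log2 difference of 8.55 (SE 0.09, limma adjusted p 1.83e-11). The spleen values lay close to the lower end of the scale that the offset sets, although the probe was detected on all 5 spleen arrays. Hamp2, a close relative of Hamp with a probe of its own, was at least 15.4-fold higher in liver, where it was detected on all 6 arrays, and was detected on no spleen array. Whether the Hamp probe also binds Hamp2 transcripts was not tested.

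The iron sensors were higher in liver too, by smaller differences. Tfr2, the second transferrin receptor, averaged 9.78 ± 0.15 in liver and 5.07 ± 0.79 in spleen, a log2 difference of 4.80 (SE 0.22, limma adjusted p 5.64e-08). Its other probe was detected on all 6 liver arrays and on 2 of 5 spleen arrays, so no size is given for it. Hfe, an MHC class I-like protein that binds transferrin receptors, averaged 7.55 ± 0.19 in liver and 6.84 ± 0.35 in spleen, a log2 difference of 0.76 (SE 0.11, limma adjusted p 0.000265). The second Hfe probe gave 0.92. Neither gene had overlapping values between the tissues on its main probe.

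Of the plasma proteins, Trf, which encodes transferrin, averaged 13.65 ± 0.14 in liver and 7.58 ± 0.69 in spleen, a log2 difference of 6.21 (SE 0.12, limma adjusted p 2.54e-10). Cp encodes ceruloplasmin, the ferroxidase that oxidises exported iron for loading onto transferrin. On its main probe it differed by 4.72 (SE 0.15, limma adjusted p 4.67e-09), but its 4 probes did not run the same way. Probes ILMN_1218681 and ILMN_2555238 were detected on all 6 liver arrays but on 0 of 5 and 1 of 5 spleen arrays, so they give no size, while ILMN_2520239 was lower in liver by a log2 value of -0.71 (limma adjusted p 0.000311). The direction of the Cp difference therefore depends on the probe.

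The storage and export genes did not pass the test between the tissues. Fth1, the ferritin heavy chain, averaged 13.27 ± 0.10 in liver and 13.09 ± 0.21 in spleen, a log2 difference of 0.23 with a 95% interval of 0.02 to 0.44 (limma adjusted p 0.0561). Its second probe gave 0.04. Slc40a1, ferroportin, averaged 11.74 ± 0.14 in liver and 11.71 ± 0.37 in spleen, a log2 difference of 0.09 with an interval of -0.16 to 0.33 (limma adjusted p 0.525). A second Slc40a1 probe, ILMN_1238359, was detected on no array. Blvrb, biliverdin reductase B, which is abundant in red cells, averaged 10.48 ± 0.47 in liver and 10.52 ± 0.93 in spleen. The fitted Blvrb difference, which weights the 3 dose groups of a tissue equally, was 0.14 (limma adjusted p 0.651). These 3 genes had overlapping values between the tissues, and all 3 were called higher in liver under 75th percentile scaling, by 0.75 for Fth1, 0.89 for Slc40a1 and 0.92 for Blvrb.

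The transporters of the NRAMP family, which move iron out of endosomes and phagosomes, ran in opposite directions. Slc11a1, the phagosomal transporter of macrophages and neutrophils, averaged 8.12 ± 0.27 in liver and 9.50 ± 0.48 in spleen. Its log2 difference was -1.29 (SE 0.14, limma adjusted p 2.85e-05), and its other 3 probes were lower in liver by log2 values of -0.47, -0.53 and -0.97. Of these 3 probes, ILMN_2674884 was detected on 4 of 6 liver arrays and ILMN_2692797 on 2 of 6. Slc11a2, the widely expressed transporter DMT1, was higher in liver by 1.98 on ILMN_1243129 (SE 0.18, limma adjusted p 9.59e-06). ILMN_2578829 was detected on 5 of 6 liver arrays and on 1 of 5 spleen arrays and gives no size. On ILMN_2665063, named by a RefSeq transcript, Slc11a2 was lower in liver by a log2 value of -0.87 (limma adjusted p 0.000378). The plot of all probes shows this split for Slc11a2 and Cp.

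**Figure D1:**
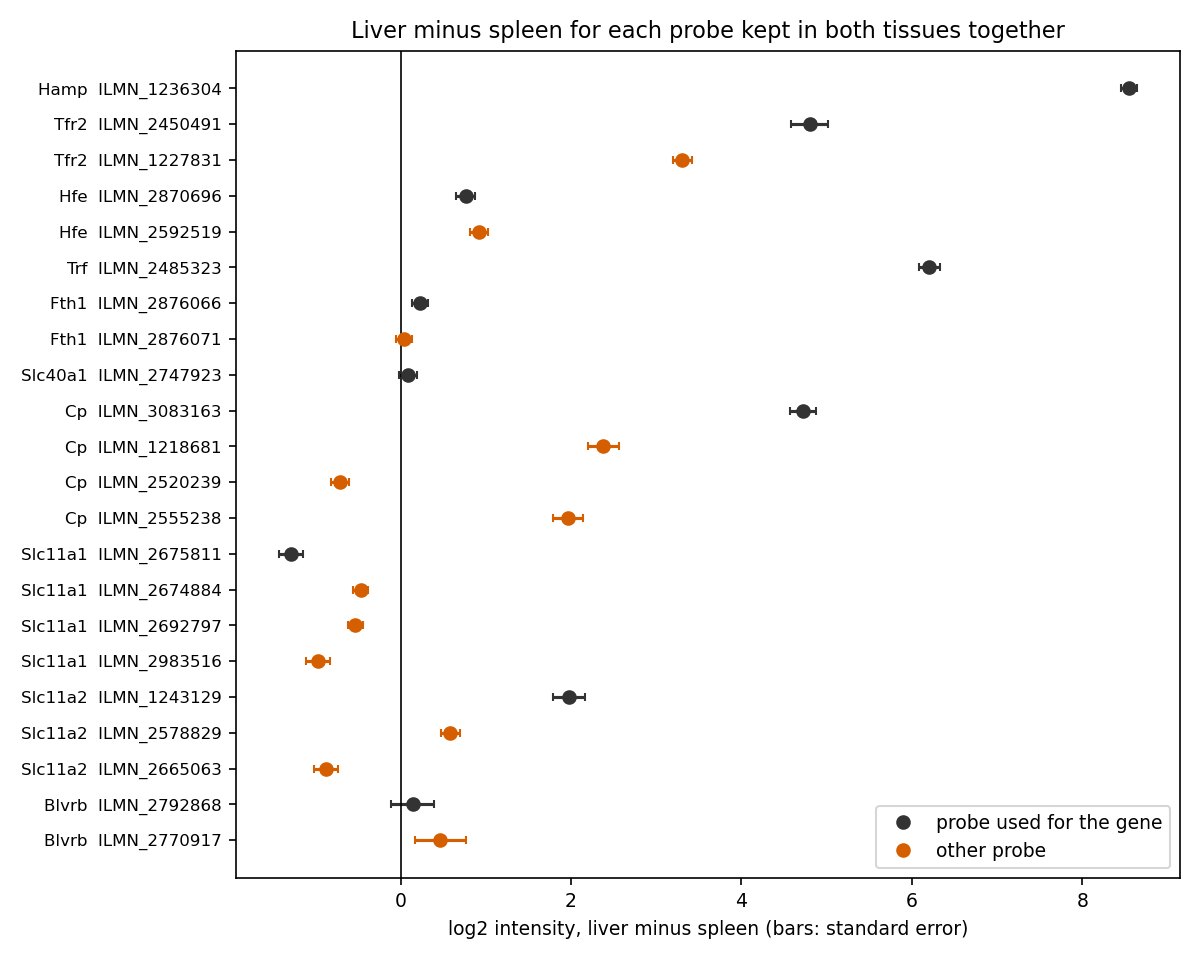
Log2 intensity difference, liver minus spleen, for each of the 22 probes of the iron genes kept when both tissues were processed together. Points are fitted differences and bars their standard errors, black marks the probe used for the gene, and the probes of Cp and Slc11a2 lie on both sides of 0 while all 4 Slc11a1 probes lie below it; ILMN_1218681, ILMN_2555238, ILMN_2578829 and ILMN_1227831 were detected on 0, 1, 1 and 2 of 5 spleen arrays, so their points are not sizes of difference.

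In liver, no member passed the test at either dose. All 10 genes and 22 of the 23 probes passed the detection filter. Against control, 0 of 10 were called at 0.1 mg/ml and 0 of 10 at 0.2 mg/ml (limma, Benjamini-Hochberg), where 0% of the 12800 features tested were called in each comparison. At an unadjusted p under 0.05, 0 members and 513 features stood out at 0.1 mg/ml, and 1 member and 1124 features at 0.2 mg/ml. Between the doses, 0 of 10 members were called (0% of features), with 2 members and 1217 features at an unadjusted p under 0.05.

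Hepcidin RNA stayed within a narrow range across the liver arrays. Hamp was at 13.19 and 13.02 in the controls, at 13.06 and 13.11 at 0.1 mg/ml, and at 13.12 and 13.11 at 0.2 mg/ml. The treated arrays all lay between the controls. The log2 difference from control was -0.02 at 0.1 mg/ml, with a 95% interval of -0.38 to 0.34, and 0.01 at 0.2 mg/ml, with an interval of -0.35 to 0.36. The lowest Hamp value belonged to the control replicate 25, the array with the acute phase sum of 65500. The Hamp signals of 7963 to 9529 were within a factor of 2 of the brightest signal on any liver array (14793), and whether the probe was near saturation was not tested.

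Tfr2 and Hfe, the sensors upstream of hepcidin, did not pass the test in liver. Tfr2 was at 9.47 and 9.89 in the controls, at 9.93 and 9.90 at 0.1 mg/ml, and at 9.83 and 9.78 at 0.2 mg/ml. The log2 differences of Tfr2 from control were 0.23 (SE 0.18) and 0.13 (SE 0.18) at the lower and the higher dose. Hfe was at 7.40 and 7.62 in the controls, at 7.16 and 7.24 at 0.1 mg/ml, and at 7.27 and 7.03 at 0.2 mg/ml. Every treated array lay below both controls for Hfe. The Hfe differences of -0.31 at 0.1 mg/ml and -0.36 at 0.2 mg/ml (SE 0.17 each) had limma adjusted p of 0.984 and 0.595. The second Hfe probe gave smaller differences, -0.06 and -0.20.

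The plasma carriers and ferritin were also close to control. Trf was at 13.74 and 13.36 in the controls, at 13.69 on both arrays at 0.1 mg/ml, and at 13.69 and 13.74 at 0.2 mg/ml, so the treated arrays lay within the span of the controls. Trf signals of 10685 to 14233 came closest to the brightest signal in liver. The Trf probe ranked between 1 and 24 of 45281 probes on the liver arrays. Its highest value, 13.74, is the top of the quantile-normalized scale, so a rise of Trf above it could not show. Fth1 was at 13.40 and 13.31 in the controls, at 13.27 and 13.34 at 0.1 mg/ml, and at 13.24 and 13.13 at 0.2 mg/ml. At 0.2 mg/ml both arrays lay below the controls on this probe, with a log2 difference of -0.17 (SE 0.15), whereas the other Fth1 probe gave 0.09. Cp was at 11.93 and 12.12 in the controls, at 11.97 and 11.50 at 0.1 mg/ml, and at 12.01 and 11.47 at 0.2 mg/ml, with a difference of -0.30 at 0.1 mg/ml and -0.29 at 0.2 mg/ml (SE 0.24 each). The Cp probe ILMN_1218681 gave -0.76 and -0.77 at those doses, while at 0.2 mg/ml ILMN_2520239 and ILMN_2555238 gave 0.41 and 0.45.

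Ferroportin values overlapped between all liver groups. Slc40a1 was at 11.77 and 11.92 in the controls, at 11.86 and 11.78 at 0.1 mg/ml, and at 11.68 and 12.02 at 0.2 mg/ml. The 95% interval of its log2 difference at 0.2 mg/ml ran from -0.40 to 0.40. With 2 arrays per group and a spread moderated over all features, the interval leaves room for a change of ferroportin RNA of up to 0.40 either way.

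Slc11a2 had the smallest unadjusted p of the members in liver. On ILMN_1243129 it was at 7.14 and 7.33 in the controls, at 7.07 and 7.22 at 0.1 mg/ml, and at 6.63 and 6.71 at 0.2 mg/ml. Both 0.2 mg/ml arrays lay below the other 4. The log2 difference at 0.2 mg/ml was -0.57 (SE 0.16, p 0.00784), with a limma adjusted p of 0.376 that ranged from 0.313 to 0.815 over the processing alternatives. ILMN_2578829 gave -0.66 at that dose, and 1 of its 2 treated arrays was not detected, while ILMN_2665063 gave 0.13. Slc11a1 was at 7.54 and 8.07 in the controls, at 7.77 and 7.80 at 0.1 mg/ml, and at 7.87 and 8.40 at 0.2 mg/ml. Slc11a1 differed from control by 0.33 at 0.2 mg/ml (SE 0.24), and its 4 probes ranged from -0.12 to 0.42.

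Blvrb was the most variable member among the liver controls. It was at 11.16 and 10.05 in the controls, at 10.92 and 11.04 at 0.1 mg/ml, and at 10.02 and 10.27 at 0.2 mg/ml. The doses did not overlap with each other, with 1 control just above the 0.1 mg/ml arrays and the other near the lower 0.2 mg/ml array. At 0.2 mg/ml against 0.1 mg/ml the log2 difference was -0.83 (SE 0.32, limma adjusted p 0.485), and the second Blvrb probe gave -0.14. Without the control replicate 25, Blvrb differed by -1.04 between 0.2 mg/ml and control (limma adjusted p 0.0180). Without the control replicate 1, it differed by 0.92 between 0.1 mg/ml and control (limma adjusted p 0.0352). Either call thus rested on which control was kept.

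Counts of groups that did not overlap were near those of all features in liver. At 0.1 mg/ml, 1 of 10 members lay above both controls and 1 below, against 15.1% and 15.1% of all features. At 0.2 mg/ml, 0 lay above and 3 below, against 20.2% and 18.5%. Between the doses, 1 lay higher at 0.2 mg/ml and 4 lower, against 25.3% and 22.8%.

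**Figure D2:**
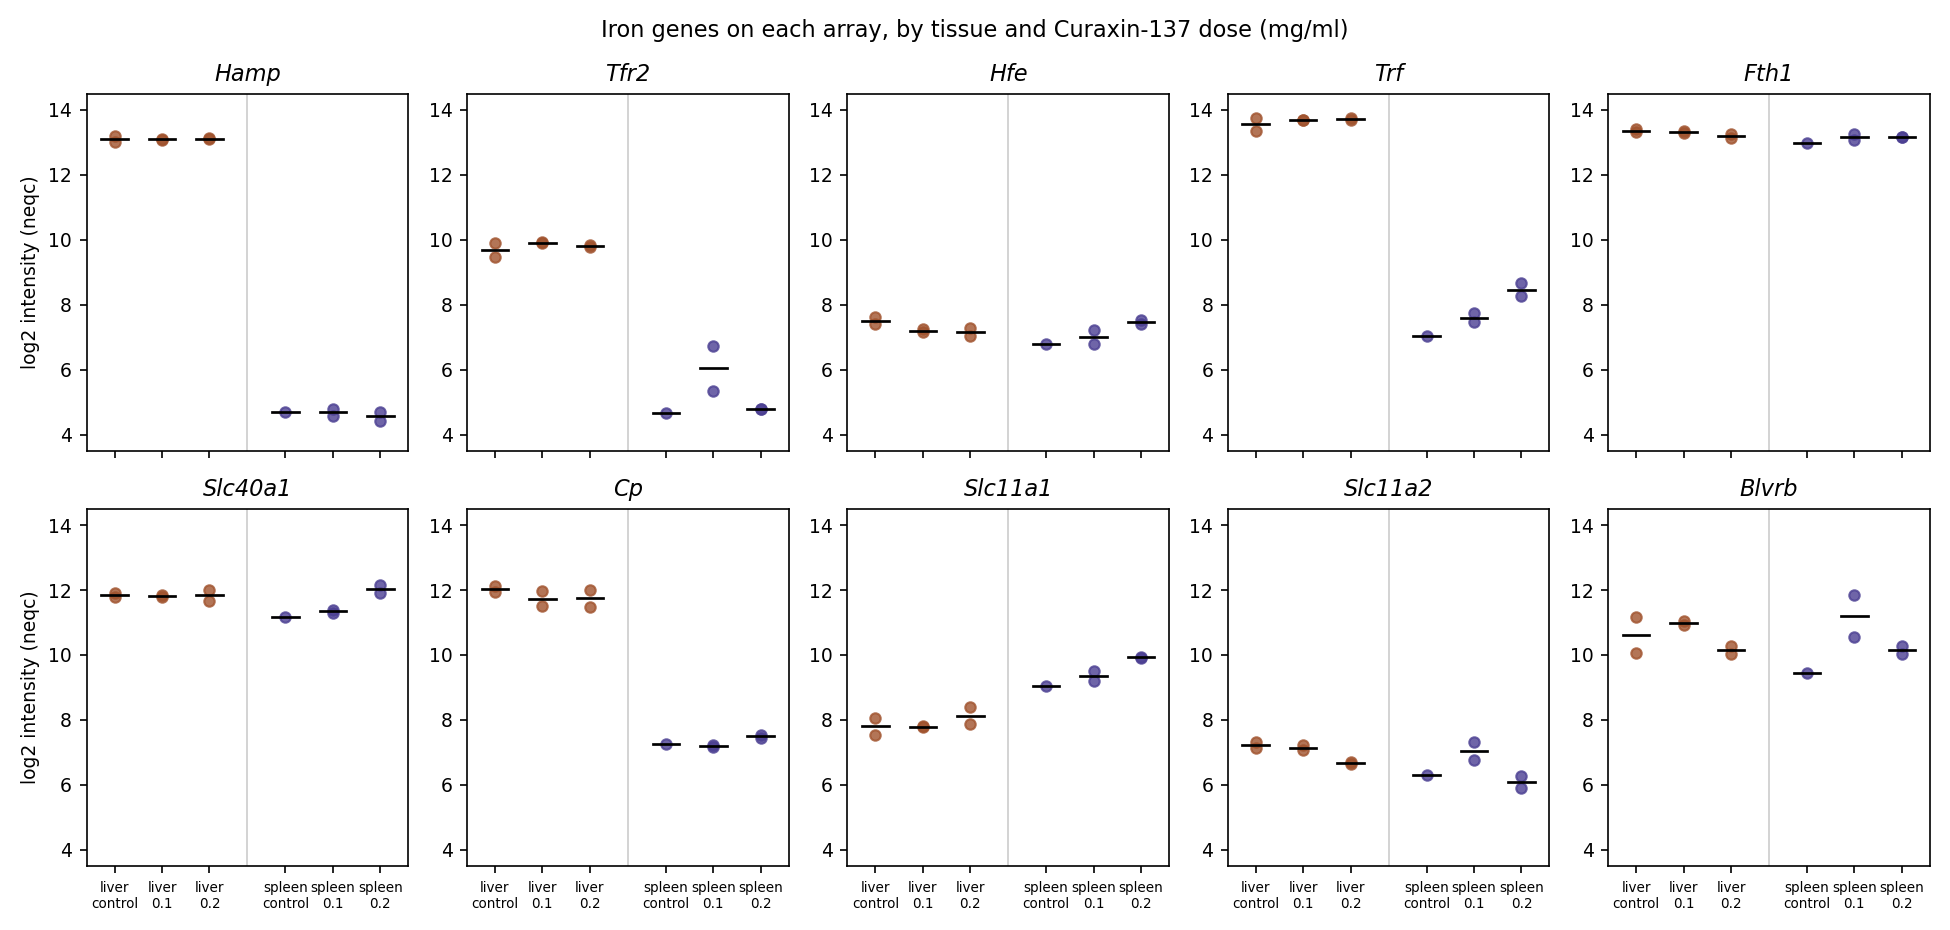
Log2 intensity of the 10 iron genes on each array (points) with group means (black bars), for liver and spleen of control mice and of mice on Curaxin-137 (0.1 mg/ml, then 0.2 mg/ml), each tissue normalized on its own. The main probe of Fth1 and of Slc11a2 differs between the tissues, so these panels compare doses within a tissue only; Hamp is level across doses in both tissues, and spleen Trf lies at 7.04 in the control and at 8.66 and 8.27 at 0.2 mg/ml.

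In spleen, no member passed the test at either dose. All 10 genes and 19 of the 23 probes passed the filter. Against the single control array, 0 of 10 were called at 0.1 mg/ml and 0 of 10 at 0.2 mg/ml (limma, Benjamini-Hochberg), where 0% of 14179 features were called in each comparison. At an unadjusted p under 0.05, 2 members and 1388 features stood out at 0.1 mg/ml, and 3 members and 805 features at 0.2 mg/ml. Between the doses, 0 of 10 members were called, against 0.00705% of features, with 6 members and 1278 features at an unadjusted p under 0.05. On simulated arrays of this design, a change of 1 on the log2 scale was recovered for 12% of features at 0.1 mg/ml and 8% at 0.2 mg/ml against the lone control, and a change of 2 for 94%. False calls numbered 17 and 13. The simulated noise was independent between features and had the moderated SD, without shifts shared by many genes such as those of replicate 32. Recovery on the real arrays may therefore be lower.

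Trf, Slc40a1, Slc11a1 and Hfe were highest in the spleens given 0.2 mg/ml, a grouping made after their values were seen and not tested. Trf was at 7.04 in the control, at 7.73 and 7.46 at 0.1 mg/ml, and at 8.66 and 8.27 at 0.2 mg/ml. Its groups did not overlap and lay in dose order. The log2 difference of Trf at 0.2 mg/ml against control was 1.43 (SE 0.30, 95% interval 0.70 to 2.15, p 0.00243), a 2.69-fold difference with a limma adjusted p of 0.393. In the fit of all 11 arrays together Trf was called, at 1.51 (limma adjusted p 0.0380). Without spleen replicate 32 it was 1.43 (limma adjusted p 0.00253) and without spleen replicate 56 it was 1.39 (limma adjusted p 0.000325). In both fits without an array the spread comes only from the pair 62 and 62_86, and with that pair counted as 1 sample the adjusted p was 1.00.

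Slc40a1 and Slc11a1, the macrophage exporter and phagosomal transporter, each had both 0.2 mg/ml arrays above the other 3. Slc40a1 was at 11.17 in the control, at 11.40 and 11.29 at 0.1 mg/ml, and at 12.16 and 11.92 at 0.2 mg/ml. Its log2 difference at 0.2 mg/ml was 0.87 against control (SE 0.27, p 0.0163, limma adjusted p 0.681) and 0.70 against 0.1 mg/ml (SE 0.22). Slc11a1 was at 9.04 in the control, at 9.20 and 9.52 at 0.1 mg/ml, and at 9.91 and 9.94 at 0.2 mg/ml. All 4 Slc11a1 probes were higher at 0.2 mg/ml than in control, by 0.88 on the main probe and by 1.13, 1.06 and 1.70 on the others, with unadjusted p of 0.0168, 0.00354, 0.00586 and 0.00102. The smallest limma adjusted p among these 4 was 0.417. Without spleen replicate 56, the 0.2 mg/ml differences from control were 0.94 for Slc40a1 (limma adjusted p 0.00894) and 0.88 for Slc11a1 (limma adjusted p 0.0113), with the spread again from the pair 62 and 62_86.

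Hfe was at 6.77 in the spleen control, at 7.21 and 6.77 at 0.1 mg/ml, and at 7.40 and 7.52 at 0.2 mg/ml. Both 0.2 mg/ml arrays lay above the other 3. The log2 difference was 0.69 against control (SE 0.30, limma adjusted p 0.901), and the second Hfe probe gave 0.56. Macrophage marker sums were also highest on the 0.2 mg/ml arrays. Over the 12 markers named by a probe, of 14 listed, the sum was 3357 in the control and 4346 and 3256 at 0.1 mg/ml. At 0.2 mg/ml it was 5477 and 4734. Of the 9 kept markers, 6 were higher than control at 0.1 mg/ml and 7 at 0.2 mg/ml, with 0 called. Their median log2 differences from control were 0.57 and 0.60. Between the doses, 6 of the 9 were higher at 0.2 mg/ml and 3 lower, with 0 called. The median log2 difference between the doses was 0.63. All 9 were detected on every spleen array. Endothelial markers were also higher, 6 of 7 at each dose, with medians of 0.44 at 0.1 mg/ml and 0.73 at 0.2 mg/ml. The part of either marker list in the values of Trf, Slc40a1, Slc11a1 and Hfe was not tested.

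Tfr2, Slc11a2 and Blvrb, grouped in the same way, had their highest spleen value on replicate 32 at 0.1 mg/ml. Blvrb was at 9.44 in the control, at 10.54 and 11.84 at 0.1 mg/ml, and at 10.02 and 10.27 at 0.2 mg/ml, with the larger value at 0.1 mg/ml on replicate 32. Its log2 difference at 0.1 mg/ml was 1.75 against control (SE 0.51, p 0.0119, limma adjusted p 0.474), and its second probe gave 1.44. Without replicate 32 the Blvrb difference was 1.08, and without replicate 56 it was 2.51. Each of these fits sets a single array at 0.1 mg/ml against the single control. Their spread comes only from the pair at 0.2 mg/ml, which may share a mouse, so only the sizes are given. At 0.2 mg/ml against 0.1 mg/ml Blvrb differed by -1.04 (SE 0.42), and by -0.38 without replicate 32.

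Tfr2 was at 4.67 in the spleen control, at 5.35 and 6.72 at 0.1 mg/ml, and at 4.79 and 4.78 at 0.2 mg/ml. The replicate 32 gave the highest value, and the 0.2 mg/ml arrays were close to the control. The difference of Tfr2 at 0.1 mg/ml was 1.37 (SE 0.52, limma adjusted p 0.498), and 0.73 without replicate 32, while its second probe, detected on 2 of 5 spleen arrays, gave 0.33. Slc11a2 on ILMN_2665063 was at 6.30 in the control, at 6.77 and 7.33 at 0.1 mg/ml, and at 6.27 and 5.91 at 0.2 mg/ml. Its differences from control were 0.76 at 0.1 mg/ml (SE 0.34) and -0.21 at 0.2 mg/ml (SE 0.34), and 0.48 at 0.1 mg/ml without replicate 32. The probe ILMN_1243129 gave 1.36 at 0.1 mg/ml, the same direction.

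Erythroid and neutrophil marker medians also peaked on replicate 32, as these 3 genes did. Of 8 kept erythroid markers of the 14 listed, 8 were higher at 0.1 mg/ml than in control, with a median log2 difference of 1.48 and 0 called. By array the median erythroid difference from the control array was 2.40 on replicate 32 and 0.56 on replicate 56, and 0.31 and 0.50 on replicates 62 and 62_86. The neutrophil median was 3.20 on replicate 32 and between 0.69 and 1.08 on the other treated spleens. At 0.2 mg/ml, 6 of the 8 erythroid markers and 8 of the 8 neutrophil markers were higher than control, with 0 called. Tfr2 was close to control at that dose, and Slc11a2 lay below it on ILMN_2665063. All 8 kept neutrophil markers were detected on every spleen array. The part of these cells in the Blvrb, Tfr2 and Slc11a2 values was not tested.

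**Figure D3:**
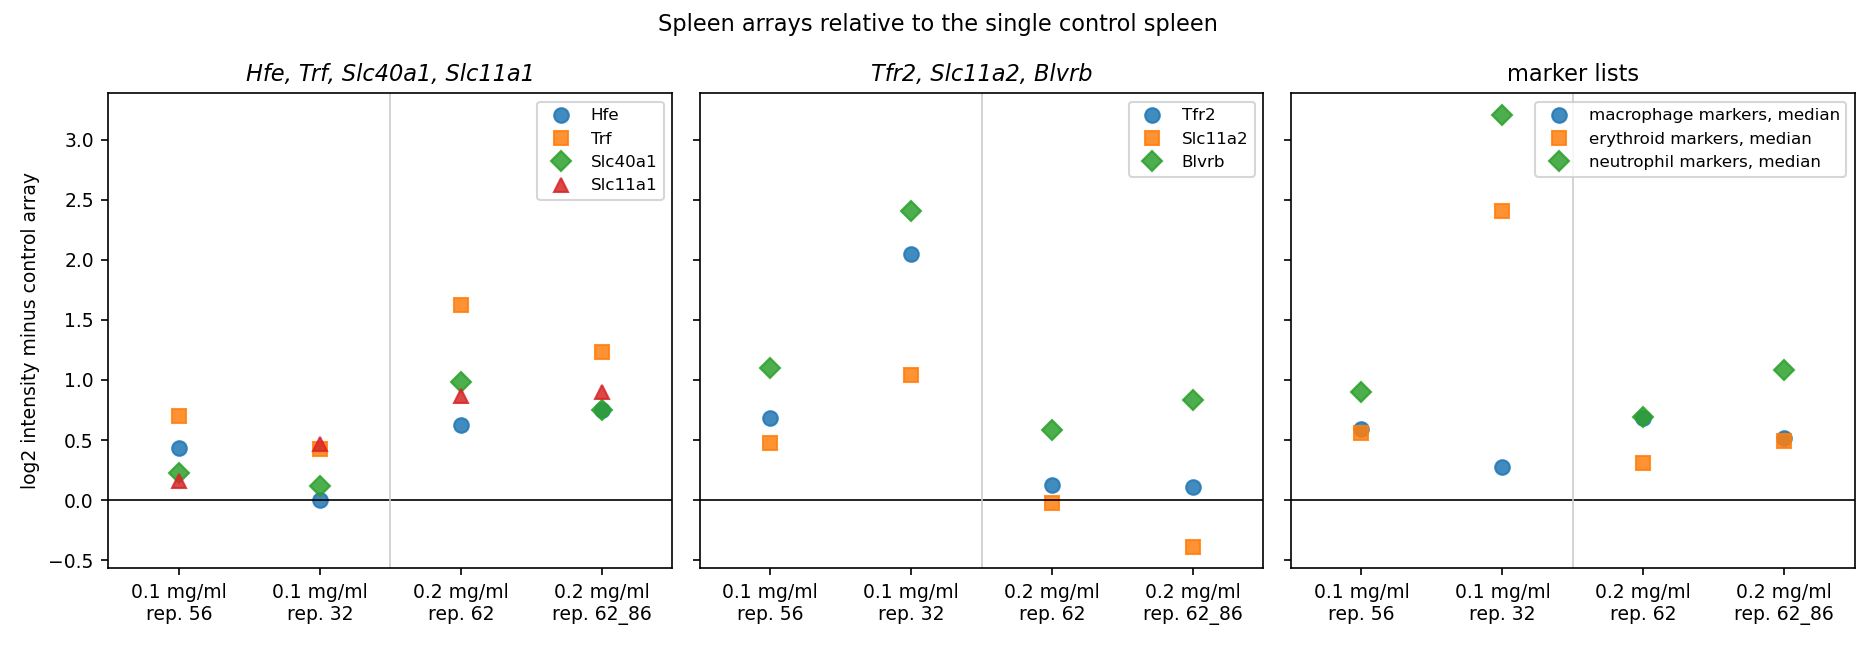
Log2 intensity on each treated spleen array minus the single control spleen, for Hfe, Trf, Slc40a1 and Slc11a1 (left), for Tfr2, Slc11a2 and Blvrb (middle) and for the medians of 3 marker lists (right). The split of the genes into panels was made after their values were seen; Blvrb, Tfr2 and the erythroid and neutrophil medians peak on replicate 32, while Trf is highest on the 0.2 mg/ml arrays.

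Hamp, Cp and Fth1 differed from the spleen control by at most 0.25 at 0.2 mg/ml on their main probes. Hamp was at 4.70 in the control, at 4.79 and 4.57 at 0.1 mg/ml, and at 4.42 and 4.71 at 0.2 mg/ml. Cp was at 7.24 in the control, at 7.16 and 7.23 at 0.1 mg/ml, and at 7.44 and 7.55 at 0.2 mg/ml. Fth1 on ILMN_2876071 was at 12.98 in the control, at 13.06 and 13.26 at 0.1 mg/ml, and at 13.16 and 13.17 at 0.2 mg/ml. The differences from control at 0.2 mg/ml were -0.14 for Hamp, 0.25 for Cp and 0.19 for Fth1, each within a standard error of 0.26 to 0.29. The other Fth1 probe, ILMN_2876066, was at 12.81 in the control, at 13.34 and 13.18 at 0.1 mg/ml, and at 13.14 and 12.97 at 0.2 mg/ml, with all 4 treated arrays above the control. Its differences from control were 0.45 at 0.1 mg/ml and 0.24 at 0.2 mg/ml (SE 0.27 each). The Cp probe ILMN_2520239 gave -0.11 at 0.1 mg/ml and 0.43 at 0.2 mg/ml.

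At 0.1 mg/ml, 8 of the 10 members lay above the spleen control and 1 below, against 34.3% and 32.3% of all features. The count includes near ties. Hfe, among the 8, was at 6.77 both in the control and on 1 array at 0.1 mg/ml. Cp, the 1 below, averaged 7.19 against 7.24. At 0.2 mg/ml, 8 lay above and 1 below, against 36.8% and 38.5%. Both comparisons share the single control array. Between the doses, which do not involve the control, 5 members lay higher at 0.2 mg/ml (Trf, Slc40a1, Slc11a1, Hfe and Cp) and 3 lower (Tfr2, Slc11a2 and Blvrb), against 20.4% and 20% of all features. The median member difference from control was 0.27 at 0.1 mg/ml and 0.47 at 0.2 mg/ml, against 0.02 and -0.00 over all features.

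**Figure D4:**
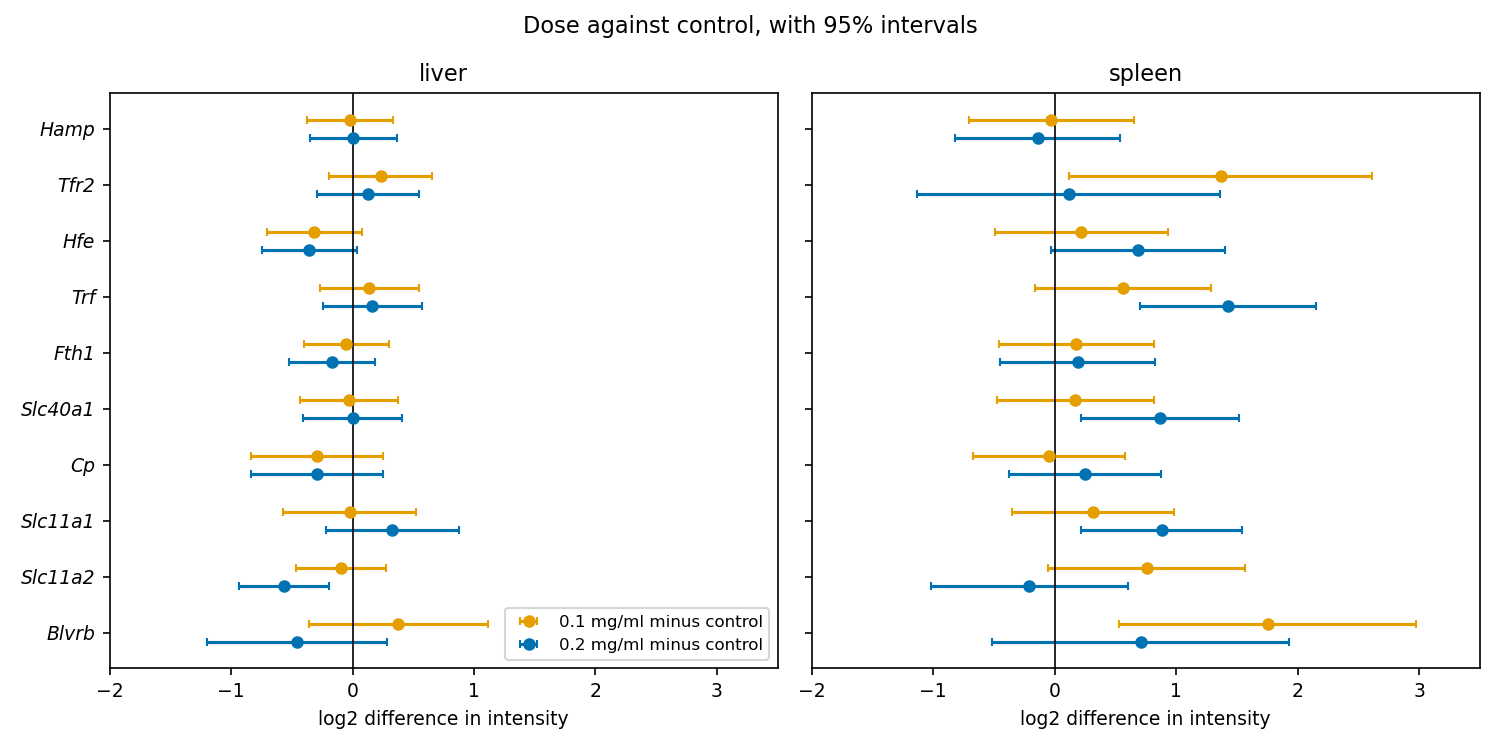
Fitted log2 difference from control for each iron gene at 0.1 mg/ml and 0.2 mg/ml in liver (left) and spleen (right), with 95% intervals from the moderated fit. None of these differences passed the adjusted threshold; the spleen intervals are wider, and Trf at 0.2 mg/ml in spleen runs from 0.70 to 2.15.

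The difference between the tissues in their response was tested directly in the fit of all 11 arrays. At 0.1 mg/ml, 0 of 10 members were called (0% of 16179 features), and at 0.2 mg/ml 0 of 10 (0.0494% of features), by limma with Benjamini-Hochberg adjustment. At an unadjusted p under 0.05 there were 3 members and 1594 features at 0.1 mg/ml, and 3 members and 1349 features at 0.2 mg/ml. Trf had the smallest p of the members, with a liver minus spleen response at 0.2 mg/ml of -1.35 (SE 0.32, p 0.00202, limma adjusted p 0.261). Hfe followed with -1.03 (SE 0.29, limma adjusted p 0.386), being lower than control in liver and higher than control in spleen. Liver Trf, ranked between 1 and 24 of 45281 probes, had little room to rise on the normalized scale, unlike spleen Trf. The part of this limit in the Trf value was not tested. Slc40a1 gave -0.75 (SE 0.28) and Slc11a1 -0.76 (SE 0.35). At 0.1 mg/ml the largest differences were -1.58 for Blvrb (SE 0.64) and -1.36 for Slc11a2 on ILMN_1243129 (SE 0.47). Without spleen replicate 32 these were -0.98 for Blvrb and -0.85 for Slc11a2. The fit of spleen alone used another Slc11a2 probe, ILMN_2665063. Its joint means in control and at 0.1 mg/ml were 5.24 and 5.30 in liver, and 5.995 and 6.76 in spleen. The difference in response on that probe thus had the same direction and was smaller.

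The wider iron pathway gave 0 calls in the dose comparisons. Of 68 genes in 4 lists, 63 were named by a probe, and the smallest limma adjusted p over the dose comparisons and the tissue differences in response was 0.314. Between the tissues, 8 of 17 tested genes of iron uptake, storage and sensing were higher in liver and 5 lower. In the list for BMP and SMAD control of hepcidin, 10 of 15 were higher and 1 lower, among them Tmprss6, the protease that restrains hepcidin, at least 27.7-fold higher in liver and detected on no spleen array. In the list for inflammatory control, 3 of 10 were higher and 2 lower, and Creb3l3, a liver transcription factor, was detected on all 6 liver arrays and on 1 of 5 spleen arrays. In the list for heme and hemoglobin recovery, 8 of 15 were higher and 5 lower, and the heme carrier Hpx, detected on 4 of 5 spleen arrays, differed by 8.97. Over all features, 25.6% were higher in liver and 36.7% lower. The medians of the 4 lists were 0.32, 0.74, 0.08 and 1.00, against -0.07 over all features.

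Within liver, Id1, a direct BMP target, was higher by 1.02 at 0.1 mg/ml (SE 0.36, limma adjusted p 0.984) and by 0.88 at 0.2 mg/ml (SE 0.36, limma adjusted p 0.542), with no overlap with the controls at either dose, beside the level Hamp values. Il1b differed by 1.11 at 0.2 mg/ml (SE 0.27, limma adjusted p 0.319) and was detected on 1 of the 2 controls. Hpx differed by 0.44 and Fech, which inserts iron into heme, by 0.49 at that dose. Macrophage markers in liver had a median difference of 0.36 at 0.2 mg/ml, with 11 of 11 higher and 0 called. The summed intensity of the 12 macrophage markers named by a probe was 1274 and 2202 in the controls, 1679 and 1643 at 0.1 mg/ml, and 2061 and 2674 at 0.2 mg/ml.

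Within spleen, Spic, the transcription factor of the iron-recycling red pulp macrophage, differed by 1.14 at 0.2 mg/ml against control (SE 0.32, limma adjusted p 0.608) and by 1.18 against 0.1 mg/ml (SE 0.26, limma adjusted p 0.465). Its arrays at 0.2 mg/ml did not overlap with either of the other groups. Id1 differed by 1.32 at 0.2 mg/ml against control (SE 0.32). Tfrc, the receptor through which red cell precursors take up transferrin, differed by -1.68 at 0.2 mg/ml against 0.1 mg/ml (SE 0.57), and Steap3, the ferrireductase of their endosomes, by -1.34 (SE 0.35). At 0.1 mg/ml against control Steap3 differed by 1.38 (SE 0.42) and Lcn2, a siderophore-binding protein of neutrophils, by 2.59 (SE 0.71). Tfrc, Steap3 and Lcn2 thus ran in the same direction as Tfr2, Slc11a2 and Blvrb in these spleens, and none of them passed the adjusted threshold.

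The 5 liver features whose log2 values followed Hamp most closely over the 6 liver arrays were Rpl30 (Pearson r 0.986), Acot3 (0.983), Dpp8 (0.982) and the unnamed probes ILMN_1255581 (0.977) and ILMN_1243220 (0.974). Of 12799 other features, 93 had an r over 0.9. Hamp spanned only 13.02 to 13.19 on these arrays, and the arrays share their normalization, so the likeness describes small differences between 6 arrays.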

How the data were processed

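Total RNA of 6 liver and 5 spleen samples was amplified and labelled, per the labels' protocols. As deposited, the intensities are probe signals from GenomeStudio 1.6.0, per the submitters' processing notes, without scaling between arrays. Each signal comes with a deposited detection p-value, per the file headers. The authors' deposited matrix holds log2 values and equals a quantile normalization of the log2 signals over all 11 arrays, with a largest gap of 5.00e-09 and medians of 5.10 to 5.11.

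The arrays of each tissue, and all 11 for comparisons between tissues, were processed with neqc in limma 3.58.1 (R 4.3.3): normexp with the background inferred from detection p-values, then an offset of 16 and quantile normalization on the log2 scale. A probe was kept if 2 or more arrays had a detection p-value under 0.05, and the kept probe with the highest mean stood for the gene. This left 12800 features in liver, 14179 in spleen and 16179 jointly. Of the probes, 34885 had 1 symbol, 18 several and 10378 none. Group means were fitted with lmFit and tested with eBayes (residual degrees of freedom 3, 2 and 5) and Benjamini-Hochberg adjustment at 0.05 over all features. Other probes of a gene were tested in a fit of every probe. The lone spleen control was assumed to vary like the treated pairs. Where 1 tissue had no detected array, the fold is a lower bound, with each dim array set to at least its lowest detected value. Precision is limited by the number of arrays.

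The members and gene lists were chosen with earlier results of these data known. The text names every member, the first 1 or 2 genes by unadjusted p of each of 4 pathway lists in a comparison, and the 5 features most like Hamp. Simulated arrays with known changes were used to check the fits (tested on simulated data). Among features given no change, the fits made 8 to 29 false calls per comparison. The alternatives were 75th percentile scaling, no background correction (signals under 1 set to 1), the authors' normalized values, every probe tested, no filter, a strict filter (under 0.01 on every array), an intensity trend with robust moderation, all arrays together, the spleen arrays numbered 62 averaged, and each array left out.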

Additional observations from a re-analysis of the deposited data

How the results depend on the processing

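No paired analysis was possible because the groups compared share no replicate numbers. Leaving out the spleen control was not run for comparisons with it, since no control would remain. The 7 tissue calls numbered 6 to 10 over the processing alternatives and 7 to 8 with each array left out, the 6 under the strict detection filter, which did not keep Hamp, so that Hamp was not tested there. Fth1 was called in liver against spleen under 75th percentile scaling (0.75), no background correction (0.23), the authors' values (0.23), no detection filter (0.23) and without spleen replicate 56 (0.27). In the dose comparisons, the count of members called moved only with all arrays together, to 1 (Trf in spleen at 0.2 mg/ml), and with single arrays left out. With each array left out it ran from 0 to 1 in the 3 liver comparisons. In spleen it ran from 0 to 3 at 0.1 mg/ml, from 0 to 4 at 0.2 mg/ml, and from 0 to 6 between the doses, the most without spleen replicate 56. For the liver minus spleen response it ran from 0 to 2 at 0.1 mg/ml (Tfr2 -1.50 and Slc11a2 -1.76 without spleen replicate 56) and stayed at 0 at 0.2 mg/ml. Fits without a spleen array at 0.1 mg/ml take their spread from replicates 62 and 62_86. Of 1354 single-gene values, 1276 kept direction and side of the threshold, 30 gained a call, 0 lost one where tested and 48 turned direction, 33 of these with an array left out, and 0 where the unadjusted p was under 0.1. Under 75th percentile scaling the reversals were 0.13 for Fth1 and 0.020 for Hamp in liver at 0.1 mg/ml, 0.0089 for Fth1 and -0.012 for Tfr2 at 0.2 mg/ml, -0.0013 for Trf between the liver doses, 0.090 for Cp in spleen at 0.1 mg/ml, 0.030 for Hamp between the spleen doses, and 0.12 for Hamp (0.1 mg/ml) and -0.19 for Tfr2 (0.2 mg/ml) in liver minus spleen response. In liver at 0.2 mg/ml, the authors' values gave -0.0016 for Hamp and 0.0088 for Slc40a1, and all arrays together gave -0.0010 and 0.0081. All arrays together also gave 0.21 for Slc11a2 in spleen at 0.2 mg/ml and -0.20 for Fth1 between the spleen doses, where the joint fit uses another probe for these genes. With each array left out, liver values at 0.1 mg/ml ran from -0.11 to 0.074 for Hamp, -0.058 to 0.31 for Trf, -0.10 to 0.050 for Slc40a1, -0.19 to 0.92 for Blvrb, -0.29 to 0.24 for Slc11a1 and -0.19 to 0.00035 for Slc11a2. At 0.2 mg/ml they ran from -1.04 to 0.099 for Blvrb, -0.088 to 0.34 for Tfr2, -0.029 to 0.34 for Trf, -0.083 to 0.11 for Hamp and -0.17 to 0.17 for Slc40a1. Between the liver doses they ran from -0.26 to 0.28 for Cp, -0.14 to 0.19 for Slc40a1 and -0.16 to 0.075 for Hfe. Spleen values ran from -0.11 to 0.094 (0.1 mg/ml), -0.31 to 0.0041 (0.2 mg/ml) and -0.28 to 0.029 (between doses) for Hamp, and from -0.12 to 0.10 between doses for Fth1. Blvrb ran from -0.047 to 0.35 in liver against spleen. In liver minus spleen response, Hamp ran from -0.096 to 0.085 at 0.1 mg/ml and -0.0026 to 0.21 at 0.2 mg/ml, and Tfr2 from -0.17 to 0.21 at 0.2 mg/ml. The cause of these changes was not tested. Calls over all features with each array left out ran from 0 to 610 in the liver comparisons and from 1 to 2065 in the spleen comparisons, and with all arrays together they were 48, 82 and 55 in spleen. For liver against spleen they ran from 5727 (strict filter) to 14041 (every probe tested), against 10086.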
